A study of Arabidopsis thaliana with 24 samples.

Results

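Light-grown seedlings of 2 Arabidopsis thaliana COP9 signalosome mutants, csn4-1 and csn5 (csn5a-2 csn5b), were set against each other on Affymetrix ATH1 arrays, which read transcript levels as signals of probe sets. The comparison held every array labelled for these lines in light, 3 csn4 arrays and 3 csn5 arrays, 6 of the 24 in the series. The other arrays used were csn4 and csn5 seedlings grown in darkness, csn3-1 seedlings in light and wild type (WT, Col) in light, 3 each. All were whole seedlings aged 7 days, about 80 mg of tissue per sample, and per the labels each group's 3 arrays come from separate biological replicates. The csn5 line carries mutations in both genes for its subunit, and the csn4 and csn3 lines carry 1 mutant allele each. The light WT is described as the wild type of csn4-1.

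The COP9 signalosome is a multisubunit complex that removes the ubiquitin-like protein NEDD8 from the cullins of SCF and related ubiquitin ligases, the machinery through which auxin, jasmonate and many other signals degrade their repressors. CSN5 carries the metalloprotease site that cuts NEDD8, while CSN4 and CSN3 are scaffold subunits with a PCI domain. In Arabidopsis a scaffold subunit is needed for the complex to accumulate, whereas the other subunits can still assemble when CSN5 is lost. Null mutants of all of these subunits arrest as small, dark-purple seedlings, so a direct comparison asks where loss of the scaffold and loss of the catalytic subunit leave different transcript levels.

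The arrays differed in ways that bear on every count below. The ratio of 3' to 5' signal of the actin control probe sets, a sign of RNA or cRNA integrity, was 9.75, 48.9 and 7.34 in the csn4 light arrays, 6.51, 5.17 and 8.10 in the csn5-labelled light arrays, and 2.44 to 3.12 in WT. Array 2 of csn4 stood apart in this ratio. Its mean correlation with its own group was 0.896, against 0.924 and 0.912 for csn4 arrays 1 and 3. Array 3 of csn4 correlated with csn5-labelled arrays 1 and 2 at 0.967 and 0.972, against 0.940 and 0.884 with csn4 arrays 1 and 2. The csn4 and WT light arrays also came from another range of deposit numbers than the csn5-labelled and csn3 light arrays, so that whatever differs between those ranges and genotype cannot be told apart in light. Results are therefore given with and without csn4 array 2.

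Shoot and root markers were detected in both lines. The summed signal of 7 nuclear photosystem and antenna genes was 34335 to 46350 in csn4, 34170 to 40665 in csn5-labelled and 100684 to 110377 in WT arrays. Of 6 root markers, 1 rose in csn4, against 1.29% of all probe sets tested, and it lost its call without csn4 array 2. The summed signal of the 6 was 4894 to 7415 in csn4, 4862 to 5541 in csn5-labelled and 17670 to 18563 in WT arrays. In whole seedlings, fewer cells of a type and less RNA per cell cannot be told apart.

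**Figure D1:**
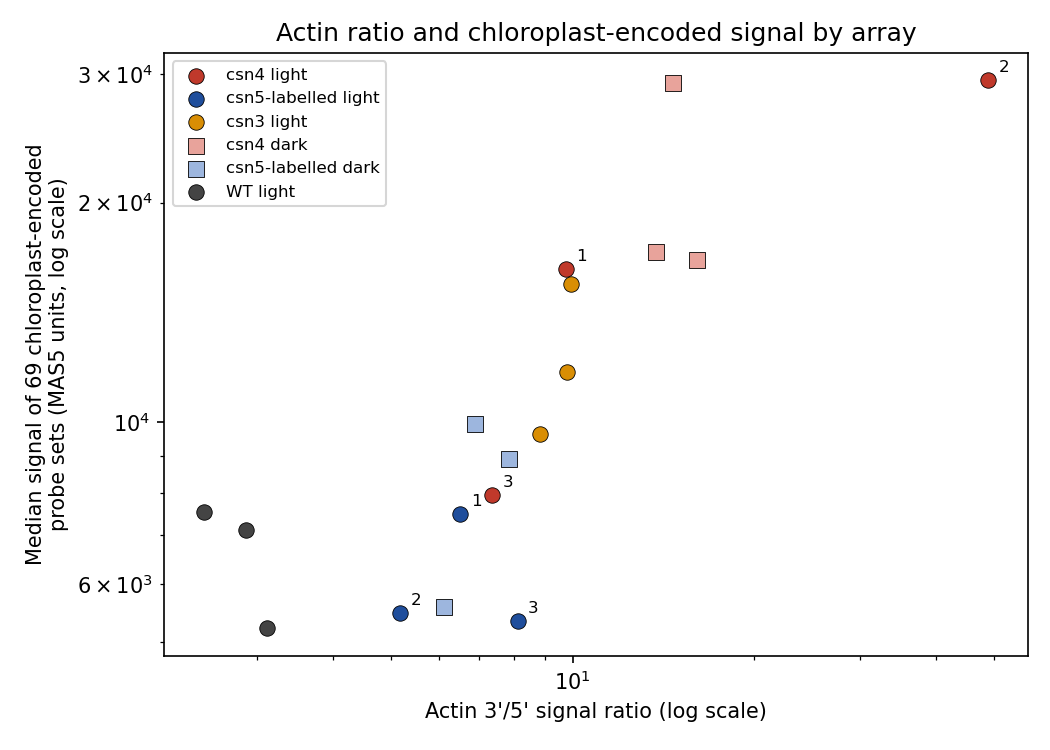
Each point is 1 array, with the actin 3'/5' signal ratio on the x axis and the median signal of 69 chloroplast-encoded probe sets on the y axis, both on log scales; numbers mark the replicates of csn4 and csn5-labelled light arrays. Array 2 of csn4 lies at a ratio of 48.9 and a chloroplast median of 29404, while csn4 array 3, at 7.34 and 7950, lies beside the csn5-labelled arrays.

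CSN5B, 1 of the 2 genes for the catalytic subunit, was the signalosome subunit with a probe set naming it alone, and its probe set was higher in the arrays labelled csn5. CSN5B had signals of 266, 332 and 224 in csn4, 895, 869 and 651 in csn5-labelled and 110, 123 and 119 in WT arrays. The groups did not overlap, and the line labelled for a mutation in this gene held the highest values. The difference of csn4 minus csn5-labelled arrays was -1.40 ± 0.20 (log2, SE; limma adjusted p = 0.00021) and -1.53 without csn4 array 2. How its probes are placed along the mutated gene is not known here, so the level does not check the label, and these arrays are called csn5-labelled throughout. CUL4, a cullin that the signalosome acts on, differed by 0.11 and was not called.

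Across the genome, few probe sets were called between csn4 and csn5-labelled seedlings. Of 18751 tested, 361 (1.93%) were called, which took a limma adjusted p below 0.05 together with a log2 difference of 1 or more in size. An unadjusted limma p under 0.05 was reached by 3964 (21.1%), so a probe set not called is not shown to be equal. Higher in csn4 were 242 (1.29%) and lower 119 (0.635%), while quantile-normalized arrays gave 154 higher and 136 lower. The csn4 and csn5-labelled arrays did not overlap at 317 of the 361 called probe sets, against 20.5% of all tested. The calls were chosen for a large difference between these same arrays, so this count only describes them. A single gene name was listed for 192 of the 361, and the genes named below come from those.

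Many of these calls rested on csn4 array 2. Without it 87 probe sets (0.464%) were called, 51 higher (0.272%) and 36 lower (0.192%), of which 47 and 35 were among the calls with it. All 361 kept their direction, but the fits share all the other arrays, so this is no separate check. Array 2 was the highest csn4 array at 184 of the 242 higher probe sets and the lowest at 93 of the 119 lower ones. How often it was the highest or lowest csn4 array among all tested was not counted, so these counts only describe the calls. Leaving out csn4 array 3, the array most like csn5-labelled ones, gave 1300 calls, and leaving out csn5-labelled array 3 gave 158. With the spread estimated from the compared groups alone, 26 were called, 10 higher and 16 lower.

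**Figure D2:**
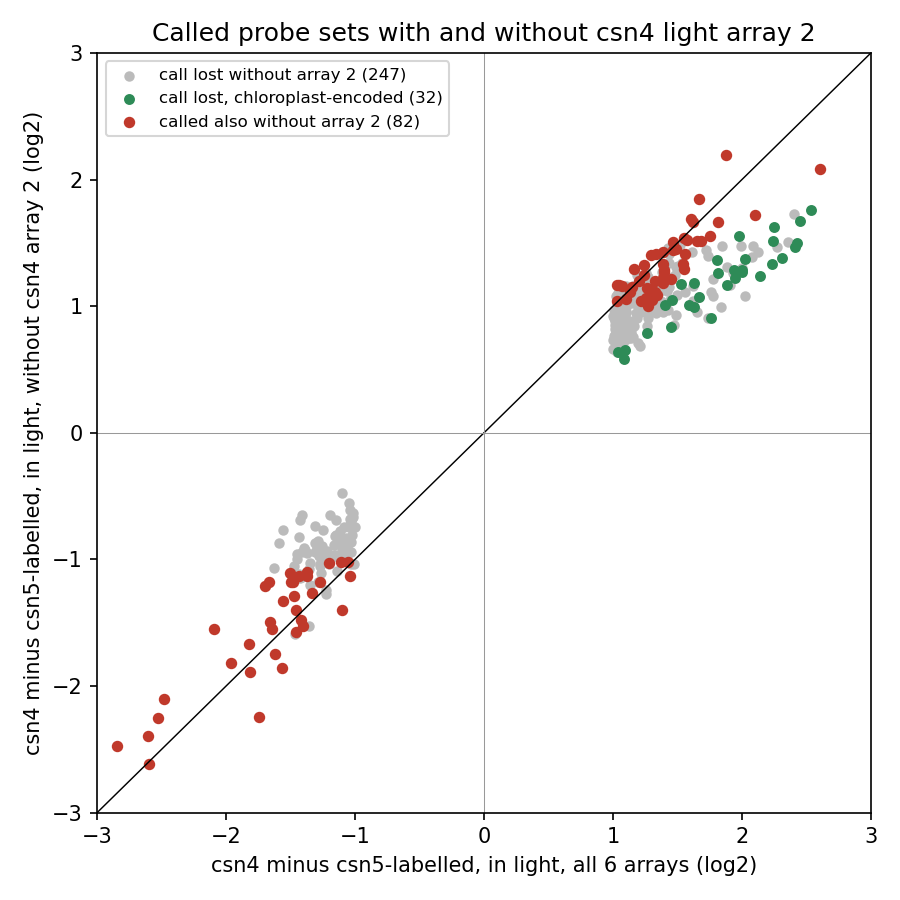
Each point is 1 of the 361 called probe sets, with its log2 difference of csn4 minus csn5-labelled light arrays over all 6 arrays on the x axis and without csn4 array 2 on the y axis; the diagonal marks equal values. The 82 red points stayed called, none of the 32 green chloroplast-encoded ones did, and the median of the 242 higher probe sets moved to 1.08 without the array, against 1.27 with it.

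Genes of the low oxygen response were lower in csn4 than in csn5-labelled seedlings. This response is the fermentation and signalling programme that plant cells switch on, through group VII ethylene response factors held down by oxygen-dependent degradation, when oxygen runs short. The list was written from general knowledge after several of its genes had been seen among the lowest, so its counts describe and do not test. Of its 32 genes, 18 had a probe set of their own, all 18 passed the filter, 9 of the 18 fell, against 0.635% of all tested, and none rose. Below 0 lay 17 (94.4%, against 43.3% of all tested), and 13 had an unadjusted p under 0.05 (72.2%, against 21.1%). Their median log2 difference was -1.01, beside 0.07 for all probe sets tested, and -0.95 without csn4 array 2, when 7 of the 9 stayed called. Their summed signal was 28836, 21045 and 16455 in csn4, 49185, 43881 and 40768 in csn5-labelled and 18433, 21622 and 20053 in WT arrays. No csn4 array reached the lowest csn5-labelled array in that sum.

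AT5G10040, a small protein induced by low oxygen, was the lowest of the named genes. AT5G10040 had signals of 613, 167 and 172 in csn4, 2295, 1599 and 1529 in csn5-labelled and 169, 233 and 256 in WT arrays. The log2 difference was -2.53 ± 0.39 (SE, adjusted p = 0.00044) and -2.25 without csn4 array 2. In level, csn4 arrays 2 and 3 were close to WT, and csn4 array 1 lay between WT and the csn5-labelled arrays. AT5G42200, a RING finger protein of the kind that acts as a ubiquitin ligase, read 707, 335 and 315 in csn4, 1898, 1502 and 2047 in csn5-labelled and 316, 344 and 328 in WT arrays. Its difference was -1.97 ± 0.21 (SE, adjusted p = 1.2e-05), with the spread taken from all groups, and -1.82 without csn4 array 2. With the spread estimated from the compared groups alone, the limma adjusted p was 0.033, and 0.034 for AT5G10040. That fit took the call from 42 of the 51 named differences in light. Among them were PDC2 (limma adjusted p = 0.087), GH3.3 (0.13), AT4G12500 (0.071), BAT1 (0.065) and SBT4.12 (0.073).

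PDC2 encodes pyruvate decarboxylase, the enzyme that starts ethanol fermentation. PDC2 had signals of 1958, 832 and 1993 in csn4, 4463, 3361 and 5350 in csn5-labelled and 613, 958 and 577 in WT arrays. It fell by 1.51 ± 0.27 on the log2 scale (SE, adjusted p = 0.0020), or -1.11 without csn4 array 2. Both mutants were above WT in mean level, with csn4 nearer to it. AT4G17260, a lactate dehydrogenase, makes the other fermentation product. AT4G17260 read 621, 271 and 434 in csn4, 1327, 1110 and 1128 in csn5-labelled and 499, 596 and 537 in WT arrays, a difference of -1.39 (adjusted p = 0.0051) whose adjusted p was 0.069 without csn4 array 2.

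The other members that fell were AT2G17850, a rhodanese-like protein (-1.82), AT3G03270, a universal stress protein (-1.67), AT4G33560 of the wound-responsive family (-1.62), AT4G27450, of the aluminium-induced family (-1.33), and AT5G66985 (-1.23, adjusted p 0.11 without csn4 array 2). AT2G17850 had 1179, 484 and 387 in csn4 against 2829, 2377 and 1763 in csn5-labelled arrays. AT3G03270 had 2334, 577 and 1187 in csn4 against 5024, 3327 and 3392. The remaining members lay between -0.79 and 0.19 and were not called. Among them CML38, a calmodulin-like protein, had a difference of -0.72 (adjusted p = 0.16), AT4G10270, another wound-responsive family gene, had -0.38, and AT3G10040, a trihelix factor, had -0.26. All 3 were higher than WT in every csn4 and csn5-labelled array. The members thus differed in size, from -2.53 to 0.19. Array 2, with its actin ratio of 48.9, had the lowest value of the csn4 arrays for AT5G10040, PDC2, AT4G17260 and AT3G03270. Array 3 had the lowest for AT5G42200, AT2G17850, AT4G33560 and AT4G27450, and the lowest summed signal of the list. With the actin ratio as a term in the fit, 8 of the 9 stayed called and the list's median was -0.87, with AT5G10040 at -2.47 (adjusted p = 0.0020), AT3G03270 at -1.35 (0.021) and PDC2 at -1.21 (0.015).

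**Figure D3:**
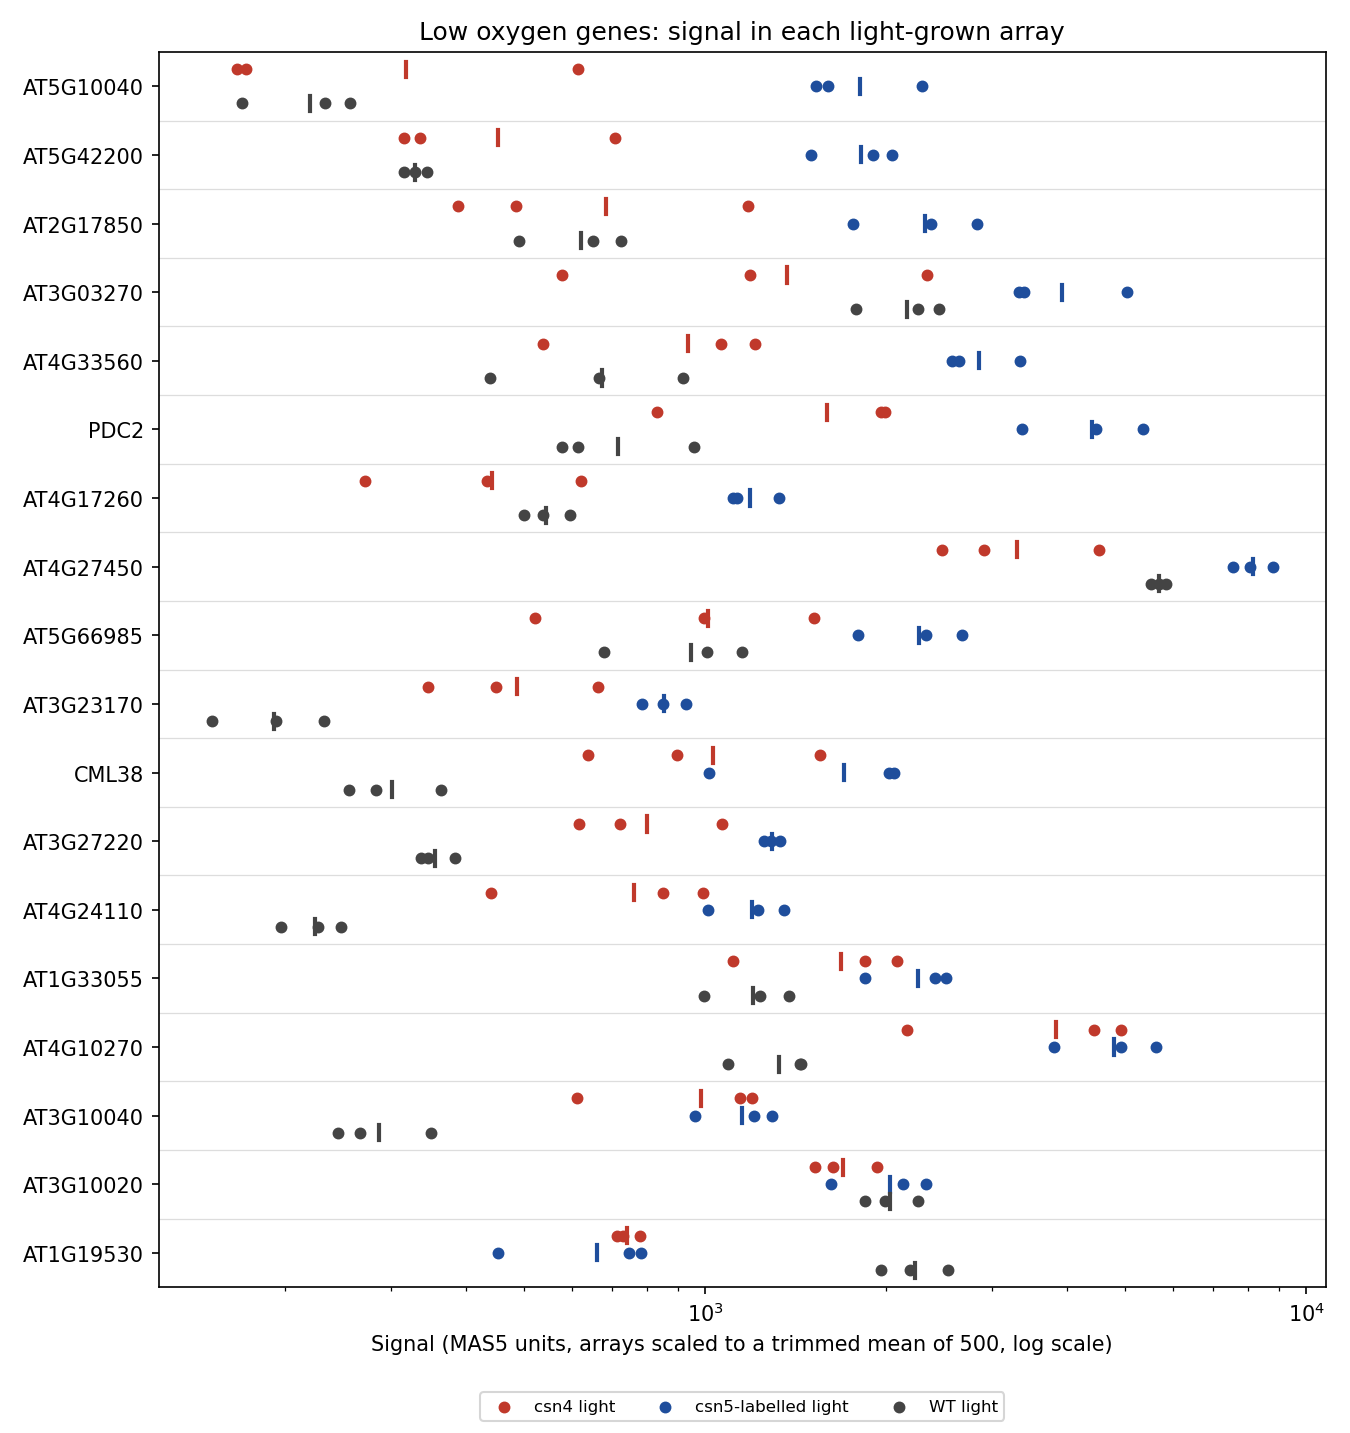
Signals of the 18 low oxygen genes measured, on a log x axis, in csn4 (red), csn5-labelled (blue) and WT (grey) light arrays, with 1 dot per array and a short vertical bar at the mean, from the lowest difference at the top. From AT5G10040 to AT5G66985 the csn4 and csn5-labelled dots do not overlap, and toward the bottom they do.

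Auxin-conjugating enzymes were the part of the auxin list that was called. Of 10 auxin response genes tested, 2 fell, where 0.635% of all probe sets did, and both are GH3 genes, which auxin induces and whose products tie auxin to amino acids. GH3.3 had signals of 173, 412 and 68 in csn4, 720, 892 and 577 in csn5-labelled and 3677, 4024 and 3764 in WT arrays. WES1, also called GH3.5, had 181, 242 and 171 in csn4, 489, 697 and 713 in csn5-labelled and 3622, 3006 and 3186 in WT arrays. Both genes were far below WT in each mutant and lower still in csn4, with no overlap between any of these groups. The differences of csn4 minus csn5-labelled arrays were -1.74 ± 0.31 (SE, adjusted p = 0.0016) for GH3.3 and -1.45 ± 0.25 (SE, adjusted p = 0.0014) for WES1. Without csn4 array 2 they were -2.25 and -1.58. The other 8, among them IAA29, IAA20 and HAT2, lay between -0.31 and 0.66 and were not called, and the median of the list was -0.03.

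The lipid-transfer family held 2 of the strongly expressed genes that fell, out of 13 tested, beside 0.635% of all probe sets. These small secreted proteins bind lipids in the cell wall and cuticle. AT4G12500 had 2639, 1116 and 4815 in csn4, 9154, 10346 and 12260 in csn5-labelled and 515, 365 and 453 in WT arrays. AT3G18280 had 6834, 4390 and 6193 in csn4, 14464, 14912 and 18770 in csn5-labelled and 1466, 1616 and 1501 in WT arrays. Both genes were above WT in both mutants and highest in the csn5-labelled arrays, with no overlap. The log2 differences were -2.09 ± 0.33 (SE, adjusted p = 0.00067) and -1.47 ± 0.27 (SE, adjusted p = 0.0022), or -1.55 and -1.29 without csn4 array 2. The other 11 ranged from -0.76 to 0.90.

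Several further genes fell in csn4 with and without array 2. AILP1, of the same aluminium-induced protein family as AT4G27450, had 1032, 698 and 987 in csn4, 3394, 2907 and 2562 in csn5-labelled and 4112, 3873 and 3620 in WT arrays. Its difference of -1.66 ± 0.21 (SE, adjusted p = 6.3e-05) kept its call under every alternative tried, as did AT3G18280, WES1, CSN5B and AT4G26460. AT4G26460 had 157, 135 and 70 in csn4, 636, 494 and 486 in csn5-labelled and 1.4 to 28.5 in WT arrays, a difference of -1.81. AT5G45510, a leucine-rich repeat protein, fell by 1.70 and AT1G63530 by 1.49. AT1G72940 had a difference of -1.47, with an adjusted p of 0.086 without array 2. TUA1, an alpha-tubulin chosen after its values were seen, fell by 1.37 (adjusted p = 0.0017). All of these had csn4 arrays wholly below csn5-labelled arrays. For the genes named as the lowest called ones, TUA1 not included, the naming rule required this.

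PDF2.5, a plant defensin, was the highest of the named genes in csn4. PDF2.5 had signals of 763, 1769 and 416 in csn4, 112, 123 and 59 in csn5-labelled and 223, 326 and 309 in WT arrays. The csn4 arrays were all above WT and the csn5-labelled arrays all below it. The difference was 2.61 ± 0.42 (SE, adjusted p = 0.00069) and 2.08 without csn4 array 2 (adjusted p = 0.010). BAT1, an acyltransferase that acts on brassinosteroids, had 169, 258 and 186 in csn4, 16, 14 and 37 in csn5-labelled and 347, 418 and 337 in WT arrays, a difference of 1.81 ± 0.29 (SE, adjusted p = 0.00064). SBT4.12, a subtilisin-like protease, had 232, 483 and 444 in csn4, 98, 109 and 45 in csn5-labelled and 517, 703 and 695 in WT arrays, a difference of 1.68 ± 0.25 (SE, adjusted p = 0.00033). For BAT1 and SBT4.12 csn4 lay between the csn5-labelled arrays and WT, and both stayed called without array 2, at 1.67 and 1.51.

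Of the 41 genes named singly that were called both with and without csn4 array 2, 20 were higher in csn4, and those given next were chosen after their values were seen. BZIP53, a basic leucine zipper factor that works with SnRK1 energy signalling and seed genes, had 2838, 4407 and 3453 in csn4, 1372, 1375 and 1192 in csn5-labelled and 2416, 2414 and 2331 in WT arrays. The csn4 arrays were above WT and the csn5-labelled arrays below it, with a difference of 1.39 ± 0.16 (SE, adjusted p = 2.0e-05). UPB1, a bHLH factor that represses peroxidase genes at the root transition zone, had 506, 1008 and 659 in csn4, 213, 322 and 212 in csn5-labelled and 134, 102 and 99 in WT arrays. Here both mutants were above WT, and csn4 was the farther (difference 1.34, adjusted p = 0.00046).

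AT3G15450, also of the aluminium-induced protein family, went the other way from AILP1 and AT4G27450. AT3G15450 had 4961, 7351 and 4857 in csn4, 2055, 3111 and 1966 in csn5-labelled and 15221, 14478 and 16107 in WT arrays, a difference of 1.25 (adjusted p = 0.00077). AT2G20670 and AT3G07350, which share a domain of unknown function, were higher in csn4 by 1.61 and 1.33. Both were lower in each mutant than in WT, at 1316, 1079 and 1271 in csn4, 482, 612 and 154 in csn5-labelled and 4027, 4145 and 3475 in WT arrays for AT2G20670. GAT1_2.1, a glutamine amidotransferase-like protein, was read by a pair of probe sets, which were higher by 1.47 and 1.72. The dimmer, at 1.72, lost its call without csn4 array 2 (1.45, adjusted p = 0.16). The brighter, which stayed called, had 676, 562 and 563 in csn4, 249, 210 and 116 in csn5-labelled and 145, 175 and 85 in WT arrays. MSRB6, a methionine sulfoxide reductase, was higher by 1.46, CIL, a CCT-domain protein, by 1.40, and AT5G17700, a MATE transporter, by 1.62. AT1G06000, a flavonol rhamnosyltransferase, had 918, 1318 and 1568 in csn4, 510, 689 and 476 in csn5-labelled and 161, 222 and 190 in WT arrays (difference 1.10, adjusted p = 0.0014). None of the 9 tested genes of the flavonoid and anthocyanin list was called. An unadjusted limma p under 0.05 was reached by 2 of them (22.2%), close to the 21.1% of all tested.

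**Figure D4:**
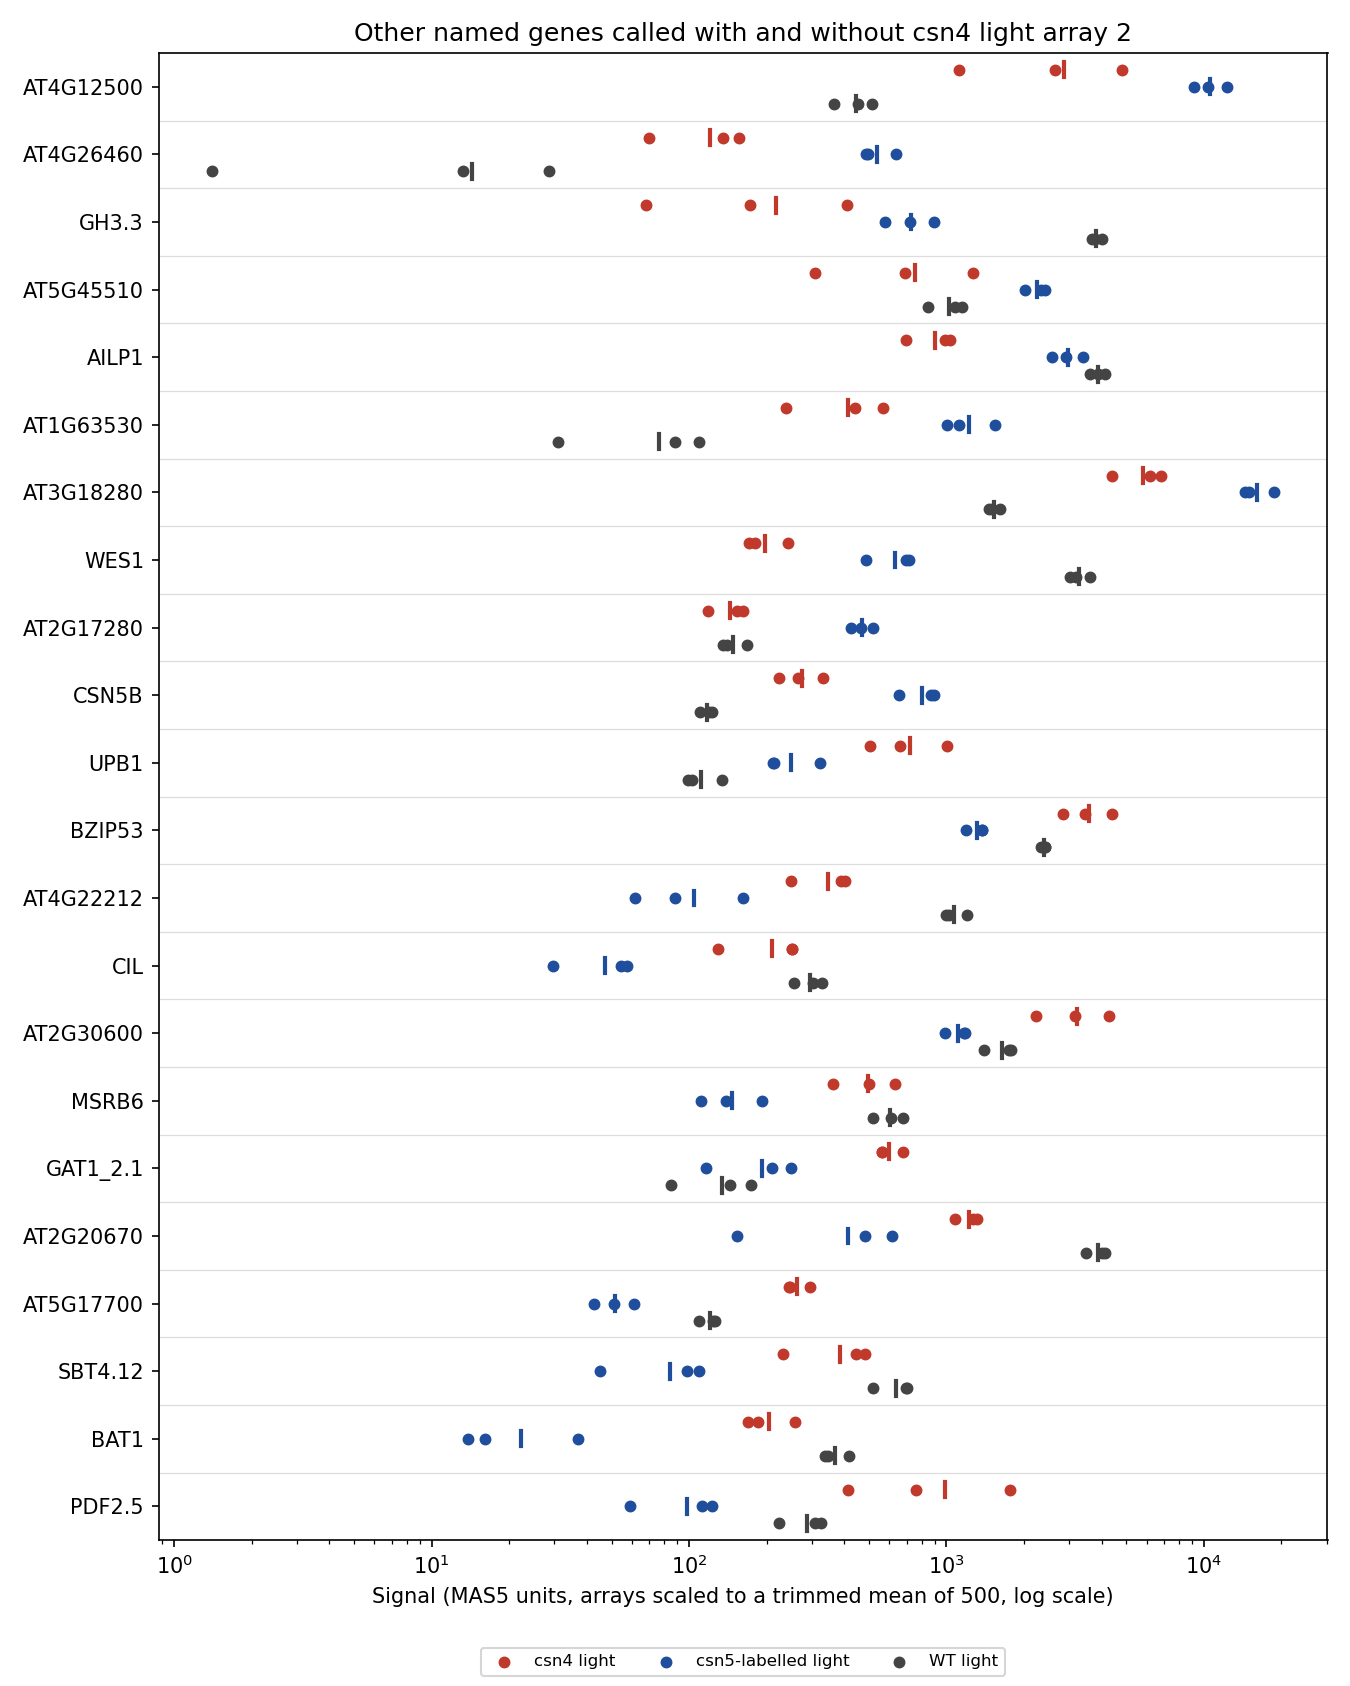
Signals on a log x axis in csn4 (red), csn5-labelled (blue) and WT (grey) light arrays, with 1 dot per array and a bar at the mean, for the 10 lowest and 12 highest genes outside the low oxygen list that were called with and without csn4 array 2. In GH3.3 and WES1 both mutants lie far below WT, in AT4G12500 and AT3G18280 both lie above it, and in PDF2.5 and BZIP53 WT lies between them.

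Chloroplast-encoded transcripts read higher in csn4, and these calls depended on array 2. All 69 probe sets for chloroplast genes were tested, 32 rose (46.4%, against 1.29% of all tested), none fell, and all 69 differences lay above 0, as did 56.7% of all tested. Their median difference was 1.21, and it was 0.82 without csn4 array 2, when limma called 0 of them. With all arrays 61 had an unadjusted p under 0.05 (88.4%, against 21.1% of all tested). The median chloroplast signal was 16226, 29404 and 7950 in csn4, 7481, 5482 and 5342 in csn5-labelled and 7540, 5223 and 7126 in WT arrays. Array 3 of csn4 exceeded the highest csn5-labelled array by little. The order of the csn4 arrays was that of their actin ratios of 9.75, 48.9 and 7.34. Signal did not follow the order of the ratios in csn5-labelled arrays (6.51, 5.17 and 8.10) or in WT arrays (2.44, 3.12 and 2.87). The cause was not tested. With the actin ratio as a term in the fit, limma called 0 of the 32 and the median of the 69 was 0.76, beside 0.02 for all probe sets tested.

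The genes behind that median span the photosynthetic complexes. psbA, for the D1 protein of photosystem II, had 25678, 44144 and 12833 in csn4 against 7425, 5364 and 5852 in csn5-labelled arrays, a difference of 1.98 ± 0.44 (SE, adjusted p = 0.013). ndhJ, a subunit of the NADH dehydrogenase-like complex, had 8018, 31288 and 2532 in csn4 against 1984, 1175 and 1630 in csn5-labelled arrays, a difference of 2.43 ± 0.58 (SE, adjusted p = 0.020). In both, array 2 was the highest by far, and without it the adjusted p was 0.14 for psbA and 0.23 for ndhJ. The actin ratio in the fit gave 1.30 (adjusted p = 0.080) for psbA and 1.47 (adjusted p = 0.13) for ndhJ. ndhH (2.31), atpI of the ATP synthase (2.25), ycf4 of photosystem I assembly (2.00), ndhE (1.81), rps16 of the ribosome (1.63), psaI of photosystem I (1.52) and ccsA of cytochrome assembly (1.46) were also called with all arrays. The 7 nuclear photosystem and antenna genes, such as LHCB4.2 at 0.34 and PSBY at -0.11, had a median of 0.25, and limma called 0 of them, with 0 at an unadjusted p under 0.05.

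Probe sets with the suffix x, whose probes match several transcripts, formed another group that followed array 2. They made up 11 of the 242 higher calls (4.55%), against 0.571% of all tested, and 0 of the 11 stayed called in limma without array 2. AT4G04010 had 458, 1333 and 164 in csn4 against 115, 101 and 31 in csn5-labelled arrays. AT3G44500 (1.78), AT1G33130 (1.77) and AT2G04980 (1.76) had the same order of csn4 arrays, and because of the shared probes the gene that gave the signal is uncertain. AT2G07732, whose suffix s also marks shared probes, differed by 2.27 and had an adjusted p of 0.26 without array 2.

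Defence and wall lists held calls in both directions. Of 25 chitinases, PR proteins and defensins, 3 rose and 2 fell, of 47 class III peroxidases 2 rose and 1 fell, and of 42 UDP-glycosyltransferases 1 rose and 1 fell, against 1.29% higher and 0.635% lower among all tested. Without csn4 array 2, PDF2.5 and the peroxidase AT4G30170 were the members of these 3 lists that stayed called. The csn4 and csn5-labelled arrays did not overlap at 13 of the 25, 21 of the 47 and 9 of the 42, against 20.5% of all tested. The medians were 0.11, 0.30 and 0.05, beside 0.07 for all tested. The chitinase family gene AT2G43620 had 3966, 2938 and 5560 in csn4 against 9582, 10483 and 9320 in csn5-labelled arrays (-1.27, adjusted p 0.22 without csn4 array 2), while its relative AT2G43610 had 340, 525 and 448 in csn4 against 185, 232 and 146 (1.03, adjusted p 0.13 without that array). Among the peroxidases, which oxidise wall phenolics, AT4G30170 had 776, 896 and 1506 in csn4 against 395, 413 and 399 in csn5-labelled arrays. Its difference of 1.24 stayed called without csn4 array 2, at 1.33. AT1G68850 (1.14) and AT4G36430 (-1.09) moved in opposite directions and lost their calls without that array.

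Other single members were called with all 6 arrays and not without csn4 array 2. LCR72, a defensin-like protein (1.41), BCAT4, which starts methionine-derived glucosinolate synthesis (1.24), AT4G13580, a dirigent protein of the root endodermis (1.18), UGT84A1, which glucosylates hydroxycinnamates (1.06), EXLA2, an expansin-like protein (1.05), and BGLU46, a beta-glucosidase (1.03), were the higher ones. UGT72E1, which glucosylates monolignols (-1.19), and CYP71B23, a cytochrome P450 (-1.02), were the lower ones. In all, 11 of 33 gene lists had at least 1 called member, 19 had tested members and no call, and 3 had none tested. The Calvin cycle, tetrapyrrole, cell cycle, DNA repair, histone, autophagy, glutathione transferase and seed maturation lists were among those with no call.

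The same genotypes in darkness gave a comparison that shared no array with the one in light and lay in 1 range of deposit numbers. The csn4 dark arrays had actin ratios of 16.1, 13.7 and 14.6, against 6.12, 7.83 and 6.87 in csn5-labelled dark arrays, so integrity differed there too, without a single array standing apart. In darkness 369 probe sets (1.97%) were called, 264 higher (1.41%) and 105 lower (0.56%). Of the 242 higher in light, 35 were called higher in darkness (14.5%) and 223 lay above 0 (92.1%), against 62.7% of all tested. Of the 119 lower in light, 27 were called lower in darkness (22.7%) and 98 lay below 0 (82.4%), against 37.3% of all tested. No probe set was called in opposite directions. Among those called without csn4 light array 2, 42 of 47 and 33 of 35 had the same sign in darkness.

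PDF2.5 was as far apart in darkness, with 693, 845 and 1430 in csn4 against 61, 74 and 216 in csn5-labelled arrays (2.69, adjusted p = 0.00079). The lipid-transfer genes were lower as well, AT3G18280 with 2665, 3331 and 1580 in csn4 against 12556, 12709 and 12163 in csn5-labelled arrays (-2.35) and AT4G12500 by -2.43. AT4G33560 (-2.15), AT4G27450 (-1.32) and AT2G43620 (-2.32) were also called lower in both conditions, the last not in light without csn4 array 2. The 69 chloroplast-encoded probe sets had a dark median of 1.20, beside 0.13 for all tested. Of them 14 were called higher, against 1.41% of all tested. AT1G10090 (1.30), AT5G03130 (1.41), AT2G07693 (1.47) and psaI (1.62) were called higher in both, but not in light without csn4 array 2, where their adjusted p ran from 0.15 to 0.35.

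Other genes were called in light and not in darkness, which does not show that the conditions differ. GH3.3 had a dark difference of -0.13 and WES1 of -0.42, with dark signals of 268, 322 and 232 in csn4 against 262, 235 and 445 in csn5-labelled arrays for GH3.3. AT4G26460 had -0.17 and AT5G10040 -0.92 ± 0.39 (SE). PDC2 had 801, 902 and 735 in csn4 against 1838, 1122 and 1112 in csn5-labelled dark arrays, which did not overlap, with a difference of -0.67 ± 0.27 (SE, adjusted p = 0.13). Of the 18 low oxygen genes, 5 were called lower in darkness, against 0.56% of all tested. Their dark median was -0.74, beside 0.13 for all tested. The summed low oxygen signal in darkness was 9941, 12746 and 8435 in csn4 against 19260, 18434 and 18673 in csn5-labelled arrays.

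The test of light minus darkness called 7 probe sets (0.0373%), 3 of them with 1 gene name. AT5G42200 differed by -1.97 in light and -0.15 in darkness, where it had 247, 303 and 233 in csn4 against 302, 249 and 332 in csn5-labelled arrays, a change of -1.82 ± 0.30 (SE, adjusted p = 0.024). AT4G05150, with a PB1 domain, had 1152, 407 and 1102 in csn4 light against 2706, 2108 and 2136 in csn5-labelled light arrays, and 1543, 1577 and 1712 in csn4 dark against 1455, 1100 and 1082 in csn5-labelled dark arrays. That change was -1.86 ± 0.36 (SE, adjusted p = 0.044); the light difference itself was -1.45, and -0.9986 without csn4 array 2, just under the size for a call. CSN5B was further apart in darkness, with 205, 247 and 146 in csn4 against 1790, 1897 and 1573 in csn5-labelled arrays (-2.87), which makes light minus darkness 1.47 ± 0.28 (SE, adjusted p = 0.044). For the other genes, GH3.3 and WES1 included, a difference between light and darkness was not called.

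**Figure D5:**
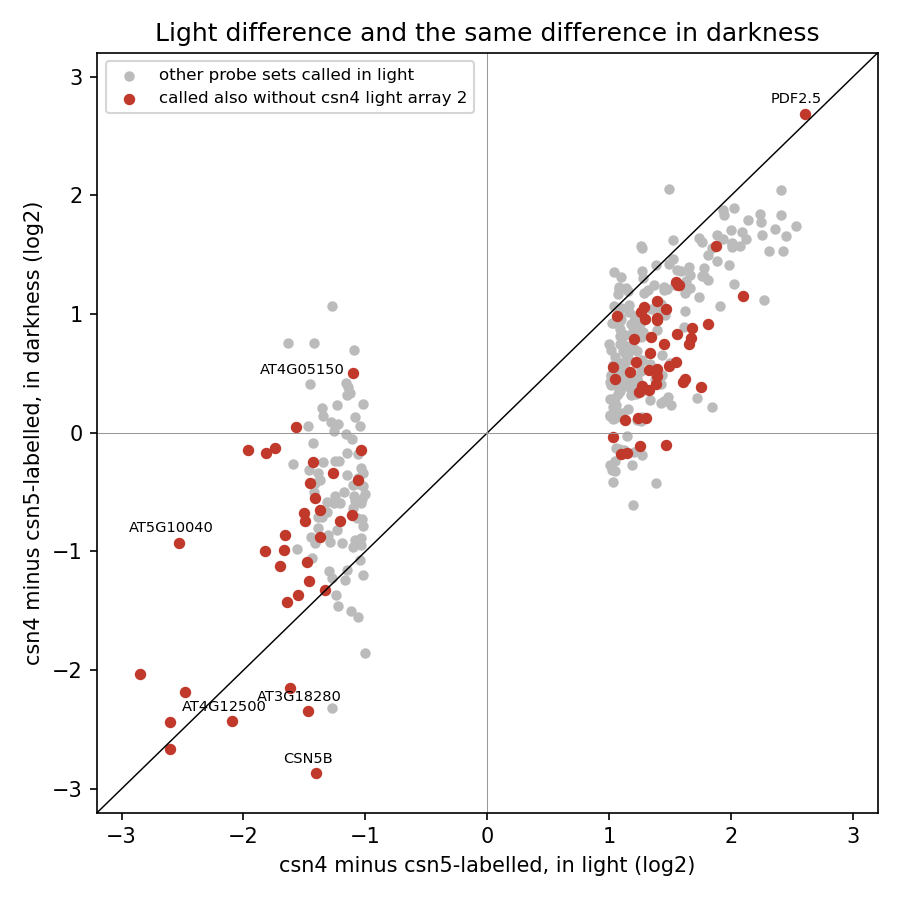
Each point is 1 of the 361 probe sets called in light, with csn4 minus csn5-labelled (log2) in light on the x axis and in darkness on the y axis; the diagonal marks equal values and red points stayed called without csn4 light array 2. PDF2.5 lies near the diagonal at 2.61 and 2.69, CSN5B lies below it at -1.40 and -2.87, and AT5G10040 above it at -2.53 and -0.92.

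The csn3 light arrays, of the other scaffold subunit, came from the same range of deposit numbers as the csn5-labelled arrays and had actin ratios of 9.80, 8.81 and 9.92. Set against the same csn5-labelled arrays, 72 probe sets (0.384%) were called, 44 higher (0.235%) and 28 lower (0.149%). The comparisons share those arrays, so values are given side by side only. For AT5G42200 the csn4 difference was -1.97 and the csn3 difference -1.40, for GH3.3 -1.74 and -1.88, for WES1 -1.45 and -1.36, for AILP1 -1.66 and -1.24, and for CSN5B -1.40 and -1.70. All 5 csn3 differences were called. For SBT4.12 the values were 1.68 in csn4 and 1.33 in csn3, and for BAT1 1.81 and 1.43, both called in csn3. For PDF2.5 they were 2.61 and 1.60 (csn3 adjusted p = 0.075), for AT3G18280 -1.47 and -0.58, for AT4G12500 -2.09 and -1.02, and for PDC2 -1.51 and -0.76, none of which was called in csn3. Between the csn3 and csn4 light arrays themselves 4 probe sets (0.0213%) were called, which does not show the others to be equal. The low oxygen median was -0.56 in csn3 minus csn5-labelled arrays, with 1 of 18 members called lower, against 0.149% of all tested. The chloroplast-encoded median was 1.01 with none called, and the median of all tested was 0.02.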

How the data were processed

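The authors deposited linear intensities, 1 per probe set and array, computed by MAS5 according to the submitters' processing notes; for its version and scaling target, not given in the sources used here, nothing is assumed. All arrays were brought to a trimmed mean of 500 (2% trimmed at each end), and log2(signal + 50) was taken, which understates ratios of dim probe sets. After 64 controls were left out, the test kept 18751 of 22746 probe sets, those reaching a signal of 100 in 3 or more arrays; 10616 of these carried 1 gene name from the platform table, with symbols updated from a TAIR10.1 gene table. limma 3.58.1 in R 4.3.3 was fitted to all 24 arrays with 1 mean per group and an intensity trend, and p-values were adjusted by Benjamini-Hochberg over all probe sets tested. The same fit was tested on simulated data, drawn as independent normal values with the same spread in every array. That test therefore does not cover an array that stands apart or an integrity difference. Adjusted p-values are limma's, and the number of arrays limits precision.

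The comparison, its gene lists and the rule for named genes were chosen with earlier results of these data known. The rule took signalosome subunits, the 15 highest and 15 lowest called probe sets with arrays that do not overlap, up to 4 called members per list, up to 6 per direction called alike in light and darkness, and the called values of light minus darkness. The low oxygen list was added later. Promoter sequence was not used here.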

Additional observations from a re-analysis of the deposited data

Results flagged for a closer look

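The test of light minus darkness picked out 3 genes with a name of their own. CSN5B changed by 1.47, AT5G42200 by -1.82 and AT4G05150 by -1.86 on the log2 scale between the light and the dark difference of csn4 minus csn5-labelled arrays. For AT4G05150, csn4 array 2 was the lowest csn4 array in light, at 407 against 1152 and 1102, and without it the light difference was -0.9986 and not called, while light minus darkness stayed called at -1.41. In the alternatives tried the values ranged from 1.31 to 1.64 for CSN5B, from -2.16 to -1.47 for AT5G42200 and from -2.10 to -1.41 for AT4G05150, with no change of sign. Each lost its call with quantile normalization and in the compared groups alone, among other settings. CSN5B also lost it without csn4 light array 2, at 1.34 (limma adjusted p = 0.11).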

How the results depend on the processing

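In light, 361 probe sets were called, against 214 with a pseudocount of 100, 26 in the compared groups alone, 630 with array weights and 120 once actin ratio was a covariate (69 higher, 51 lower). Leaving out 1 array gave 87 to 1300. With csn4 light array 2 left out, a choice made after the data were seen, the compared groups alone gave 16 and quantile normalization 84. In darkness 369 became 242 with quantile normalization (78 higher and 164 lower, against 264 and 105), 589 in the compared groups alone, 122 with the actin covariate and 95 to 454 with 1 array left out. For light minus darkness, 7 became 0 with quantile normalization and in the compared groups alone (limma; 1656 and 1320 at an unadjusted p under 0.05), 2 with a pseudocount of 16, 3 with no filter, 4 with array weights, 21 with the actin covariate and 0 to 40 with 1 array left out. For csn3 against csn5-labelled arrays in light, 72 became 193 in the compared groups alone, 239 with array weights and 20 to 53 with 1 array left out. The cause was not tested.

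Same-numbered csn4 and csn5-labelled light arrays deviated from their group means with correlations of 0.006, -0.219 and -0.241, so the numbers do not pair them; the replicate block gave 360 calls in light and 329 in darkness. Of the 51 named differences in light, none changed sign, 31 lost their call without csn4 light array 2, 42 lost it in the compared groups alone, and 5 kept it throughout.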
